A study of Mus musculus with 43 samples.

Results

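The genes described here are 44 mouse genes whose proteins build the small subunit of the ribosome: members of the small-subunit processome, enzymes that modify 18S rRNA, factors of late 40S maturation and treacle. They were chosen by gene symbol and not by a measured value, and 43 of the 44 have an entry by symbol in 7 of the 8 RNA-seq tables of the series. Riok2, a late 40S kinase, has no entry under its own symbol in any table and gets no value. The tables give FPKM, a fragment count scaled to transcript length and library size, so a level is per length. The table of the Ddx18 knockdown in embryonic stem cells (ESCs) lists 19 of the 44 genes.

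The small-subunit processome is the large particle that forms on the 5′ part of the ribosomal RNA precursor while RNA polymerase I still transcribes it. The UTP-A proteins bind first, UTP-B and the U3 ribonucleoprotein follow, and the enzymes and GTPases that join later drive the cleavages that release the 18S precursor. The released pre-40S particle then goes to the cytoplasm, where NOB1, PNO1, TSR1 and the RIO kinases complete it.

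The series comprised 43 samples, 37 of them RNA-seq libraries. All ESC libraries came from cells grown in serum with LIF, of the CJ9 line and strain 129S1/SVImJ in the labels. With knockdown of Ddx18, which encodes a nucleolar DEAD-box RNA helicase, 2 libraries each of ESCs, EZH2 KO ESCs and p53 KO ESCs were set against 2 control libraries of the same cells. Ddx18 knockout embryos (2 libraries) and wild-type embryos (2 libraries) were taken at embryonic day 3.5 from Ddx18 heterozygous C57/B6 pregnancies. Actinomycin D (ActD), a DNA-binding drug that at low dose acts mainly on RNA polymerase I, was given to ESCs at 5 or 10 ng/ml (2 libraries each, against 3 with 0 ng/ml) and to p53 KO ESCs at 10 ng/ml (2 libraries, against 2 with 0 ng/ml). CX-5461, which blocks initiation by RNA polymerase I, was given to ESCs at 1 µM (3 libraries, against 3 with 0 µM), and cycloheximide (CHX), an inhibitor of translation elongation, at 10 µM (2 libraries, against 2 with 0 µM). The labels give no duration of any drug, do not say how the knockdown was made or whether KD1 and KD2 are different hairpins, and do not say whether libraries came from separate cultures, clones or pools of embryos, so the p-values measure only the spread between these libraries.

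Some properties of the libraries bear on every result below. Mapped read totals used here ran from 14385912 to 22983179 in 3 libraries of the ESC knockdown table, and the depth of the other libraries was not analysed here. Ddx18 itself checked the labels of the knockdown and knockout libraries: it had 9.94 and 8.52 FPKM in knockdown ESCs against 84.6 and 89.1 FPKM in their controls, and it was lower in all knockdown and knockout libraries of the other 3 tables. Ezh2 lay at 2.76 to 4.12 FPKM in the EZH2 KO table, while Trp53 mRNA was still present in p53 KO cells (91.5 to 259 FPKM), so its level does not check that genotype, and the source field of the p53 KO libraries given ActD names the parental line alone. The 5 ESC markers together gave at least 858 FPKM in every p53 KO and EZH2 KO library, but 108 to 113 FPKM in ESCs with 10 ng/ml ActD against 1191 to 1205 FPKM without it, and 408 to 437 FPKM with CX-5461 against 1103 to 1243 FPKM without. All 6 trophectoderm markers had an entry, and their sum was 546 to 570 FPKM in ESCs with 10 ng/ml ActD, against 12.6 to 48.5 FPKM in ESCs without ActD. In p53 KO ESCs it was 28.7 to 30.7 FPKM with ActD, against 18.1 to 21.95 FPKM without. With CX-5461 it was 116 to 119 FPKM, against 3.21 to 5.07 FPKM without. Ddx18 knockdown in EZH2 KO ESCs gave 72.6 to 78.3 FPKM, against 26.0 to 32.6 FPKM in controls. In p53 KO ESCs the knockdown gave 80.7 to 134 FPKM, against 71.2 to 85.2 FPKM in controls. With CHX the trophectoderm sum was 5.22 to 11.9 FPKM, against 14.1 to 15.4 FPKM without. The 5 ESC markers gave 444 to 463 FPKM with CHX, against 1118 to 1164 FPKM without. Whether these shifts in cell state account for any change of the genes described here was not tested, and in bulk RNA fewer cells of a type and less RNA per cell cannot be told apart.

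In 14 of the 43 genes the annotated span overlaps another gene that reached 1 FPKM, among them Utp14a, Nol11, Tsr1, Rrp36, Emg1, Tbl3, Krr1 and Dimt1. The labels do not say whether reads were counted by strand, so reads of those partners cannot be told apart from the genes' own.

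Promoters are shown for 4 genes because these 4 carry the contrasts described below: Pwp2 moved up with both inhibitors of RNA polymerase I and down with CHX, Rrp9 had the largest fall with each of those inhibitors in ESCs, and Nol11 and Tsr1 rose with ActD in both genotypes and with CHX. The rises of Pwp2 and Nol11 in p53 KO ESCs were not called when the libraries were rescaled to a common median ratio (0.25 and 0.16 on the log2 scale, adjusted p = 0.11 and 0.26 with limma). The sequences are those of RefSeq on GRCm38.p6 and cover 300 bases around the annotated start, 5′ to 3′ on the gene's strand. Capitals mark CACGTG, the E-box bound by the MYC and USF families among others, and CCGGAAGT, the core bound by ETS factors; each was searched on both strands.
Pwp2: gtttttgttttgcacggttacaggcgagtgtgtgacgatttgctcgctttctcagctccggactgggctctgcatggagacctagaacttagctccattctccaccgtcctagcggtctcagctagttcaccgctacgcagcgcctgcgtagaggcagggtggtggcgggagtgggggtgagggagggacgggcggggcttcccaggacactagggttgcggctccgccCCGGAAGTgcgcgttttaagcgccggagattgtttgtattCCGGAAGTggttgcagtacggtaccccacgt
Rrp9: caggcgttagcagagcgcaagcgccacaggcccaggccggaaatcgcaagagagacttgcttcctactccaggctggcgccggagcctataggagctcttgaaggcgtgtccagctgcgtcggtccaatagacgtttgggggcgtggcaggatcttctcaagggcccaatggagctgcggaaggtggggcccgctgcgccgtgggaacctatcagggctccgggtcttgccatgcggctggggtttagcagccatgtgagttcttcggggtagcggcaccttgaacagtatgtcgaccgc
Nol11: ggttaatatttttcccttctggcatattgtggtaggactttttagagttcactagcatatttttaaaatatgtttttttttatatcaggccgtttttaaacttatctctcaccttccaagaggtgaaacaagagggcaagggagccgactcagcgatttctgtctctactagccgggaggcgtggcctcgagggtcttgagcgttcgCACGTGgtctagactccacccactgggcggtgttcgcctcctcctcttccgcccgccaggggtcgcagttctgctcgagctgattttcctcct
Tsr1: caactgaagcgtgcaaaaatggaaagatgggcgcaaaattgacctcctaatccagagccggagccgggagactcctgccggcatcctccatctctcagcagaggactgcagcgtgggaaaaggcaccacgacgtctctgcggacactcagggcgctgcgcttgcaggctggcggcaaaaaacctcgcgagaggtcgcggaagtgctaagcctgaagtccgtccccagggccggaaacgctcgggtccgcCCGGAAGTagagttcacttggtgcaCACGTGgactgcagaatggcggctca

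The Pwp2 window is chr10:78185100-78185399 on the minus strand and holds CCGGAAGT at 2 places. The Rrp9 window is chr9:106477059-106477358 on the plus strand and holds neither motif. The Nol11 window is chr11:107189332-107189631 on the minus strand with 1 CACGTG, and the Tsr1 window is chr11:74897830-74898129 on the plus strand with 1 of each. Of the 44 genes, 36 had a promoter in the table. CACGTG was found in 11 of the 36 (30.6%), against 8.91% of 17491 promoters of all genes, and CCGGAAGT in 10 of the 36 (27.8%), against 5.69%. The other 11 motifs searched were GGGCGG (66.7% of the 36 against 49.2% of all), CTTCCG (63.9% against 23.5%), GCCAT (44.4% against 42.7%), CCAATC (27.8% against 20.7%), CCTTTC (22.2% against 25.8%) and TATAAA (8.33% against 14.8%). CTCTTTCC and TCGCGA were each found in 5.56%, against 3.51% and 3.81% of all promoters. CATGCGCA and the NRF1 palindrome were each found in 2.78%, against 2.94% and 1.47% of all promoters, and the ZBTB33 palindrome, which contains TCGCGA, in 0 of the 36, against 0.755%. CTTCCG lies inside the reverse complement of CCGGAAGT, so those counts overlap. A match is a run of letters in this window and not a binding site. The shares over all promoters take in genes not expressed in these cells, and no share over expressed genes alone is given.

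In untreated ESCs of the ActD table, the median of the 43 genes was 28.4 FPKM. The highest was Rrp9, the U3-specific protein, at 78.3 FPKM, followed by Emg1, Tcof1 and Imp3. The lowest was Dimt1, the dimethyladenosine transferase of 18S rRNA, at 4.64 FPKM. In p53 KO ESCs without ActD the median was 29.2 FPKM and in ESCs without CHX 29.9 FPKM, while in the ESCs without CX-5461 it was 8.94 FPKM and in wild-type embryos 5.43 FPKM. Libraries in different tables were processed separately, so levels set across tables are a description only. In embryos 8 of the 43 genes averaged under 1 FPKM in the wild type, and the highest were Pno1, the partner of NOB1, at 59.5 FPKM and Emg1, the pseudouridine methyltransferase.

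**Figure D1:**
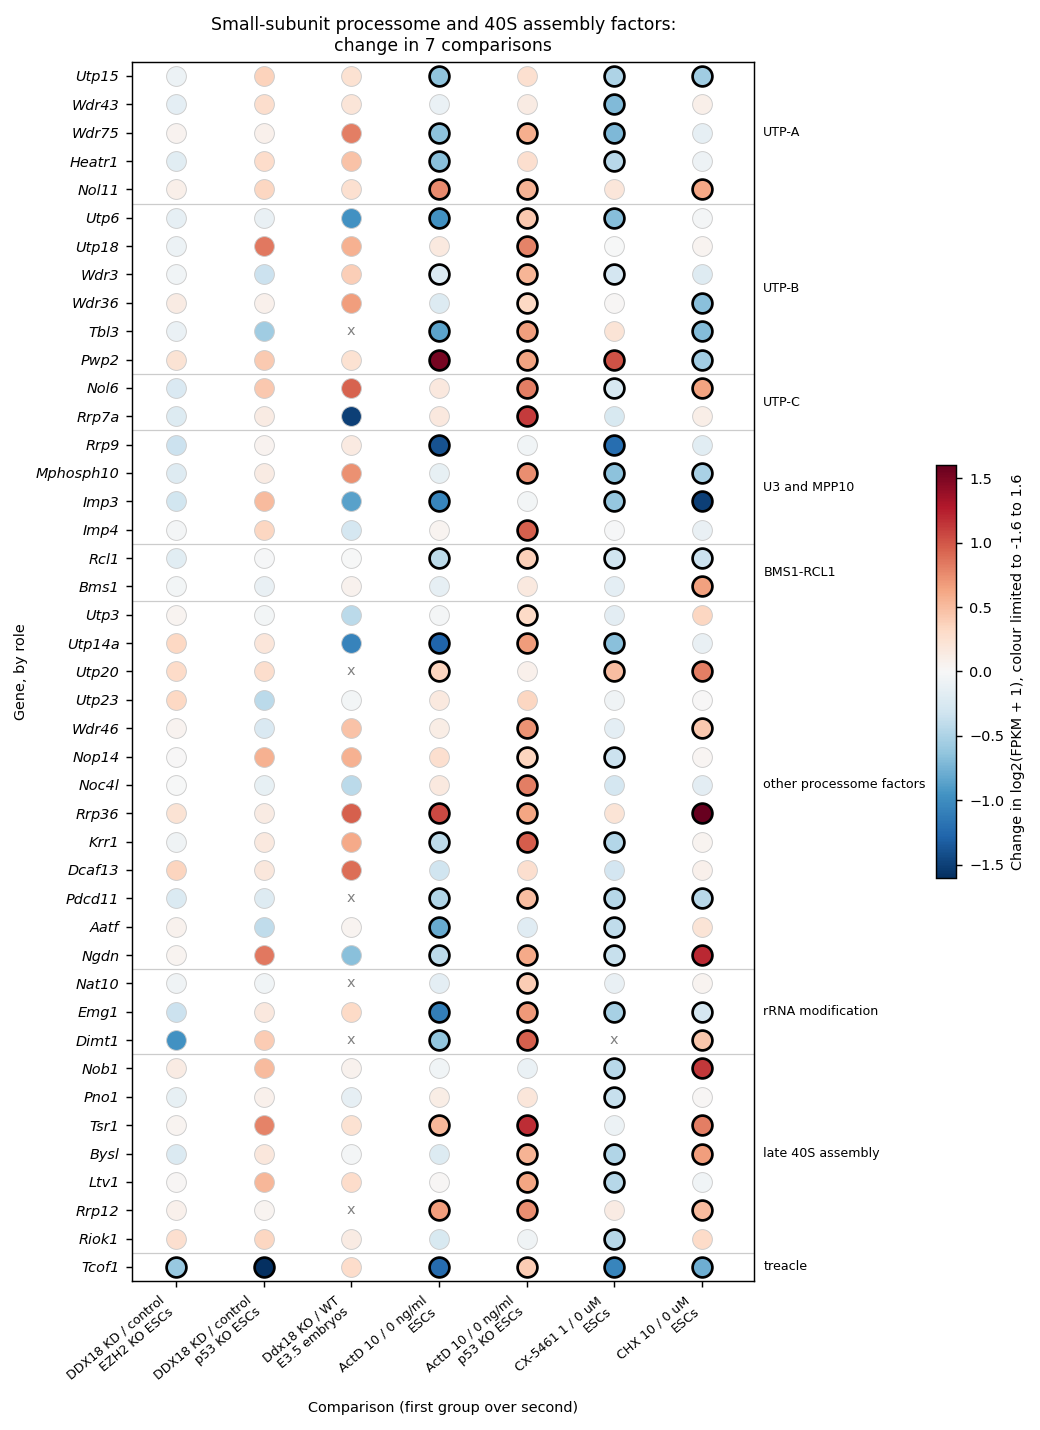
Change in log2(FPKM + 1) of each of the 43 genes (rows, by role) in 7 comparisons (columns, first group over second), red for higher and blue for lower. A black ring marks an adjusted p under 0.05, a cross a gene under the FPKM minimum. Rings are dense in the ActD, CX-5461 and CHX columns, and Tcof1 has the only ring in each of the 2 knockdown columns.

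Low-dose ActD split these genes in ESCs. At 10 ng/ml, Pwp2, a UTP-B protein, rose 2.97-fold, and Rrp36, Nol11, Rrp12, Tsr1 and Utp20 rose with it. Rrp9, Utp14a, Tcof1, Emg1, Imp3 and Utp6 fell to 0.373 to 0.486 of their untreated means, and 17 genes fell in all. Of the 43 genes tested with limma, 6 were higher and 17 lower at an adjusted p under 0.05 (background over all 14522 genes tested: 36.4% higher and 20.0% lower). Their median change was -0.16 on the log2(FPKM + 1) scale, against 0.25 over all genes. At 5 ng/ml, which shares its control libraries with 10 ng/ml, 6 were higher and 14 lower (background: 32.9% higher and 16.1% lower), with a median of -0.21 against 0.24. Rescaled, 5 were higher and 27 lower at 5 ng/ml (background: 27.3% higher and 20.8% lower).

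The median over all genes was itself above 0, so each change is also given after the libraries were rescaled to a common median ratio, which moved the median of all genes to 0.12 at 10 ng/ml. Rescaled, 5 of the 43 genes were higher and 24 lower at 10 ng/ml (background: 31.2% higher and 55.2% called in either direction). Utp20 was the gene that left the higher ones, at 0.20 rescaled (adjusted p = 0.056).

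Pwp2 encodes a scaffold protein of UTP-B that binds the 5′ external transcribed spacer. It had 48.6 and 45.8 FPKM with 10 ng/ml ActD and 39.2 and 38.0 FPKM with 5 ng/ml, against 12.2, 17.6 and 17.8 FPKM without ActD. All treated libraries lay above all untreated ones. Lack of overlap was part of the rule that chose the called genes shown by library with each drug, so it is no separate support. The change at 10 ng/ml was 1.53 ± 0.17 (SE; limma, adjusted p = 0.0004) and 1.37 rescaled.

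Rrp36, which takes part in the early cleavages, had 32.2 and 32.5 FPKM with 10 ng/ml ActD, against 14.7, 17.1 and 13.5 FPKM without. Nol11, a UTP-A protein of vertebrates, had 32.7 and 36.5 FPKM, against 21.95, 20.9 and 17.8 FPKM without. In each of these genes the treated and untreated libraries did not overlap, as the choice required. The changes were 1.06 (limma, adjusted p = 0.00032) for Rrp36 and 0.75 (adjusted p = 0.0014) for Nol11. Rrp12 and Tsr1 belong to late 40S maturation. Rrp12 had 45.5 and 42.6 FPKM with 10 ng/ml ActD, against 29.4, 25.9 and 27.2 FPKM without, a change of 0.66 (adjusted p = 0.00067). Tsr1 had 29.9 and 31.03 FPKM, against 19.7, 21.3 and 21.3 FPKM without, a change of 0.53 (adjusted p = 0.0015). Utp20, a large repeat protein of the processome, was the smallest of the 6, with 32.9 and 34.8 FPKM against 26.1, 26.4 and 26.0 FPKM and a change of 0.36 (adjusted p = 0.0044).

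Among the genes that fell, Rrp9 had 29.7 and 28.8 FPKM with 10 ng/ml ActD and 26.7 and 25.5 FPKM with 5 ng/ml, against 85.6, 75.1 and 74.2 FPKM without. It was the highest of the 43 genes without ActD and was no longer among the 4 highest at either dose, where Nop14 and Noc4l came first. Its change at 10 ng/ml was -1.39 ± 0.08 (SE; limma, adjusted p = 4e-05), and -1.55 rescaled.

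Tcof1 encodes treacle, which links RNA polymerase I transcription to pre-rRNA processing. It had 25.3 and 24.8 FPKM at 10 ng/ml, against 58.5, 60.4 and 61.6 FPKM without ActD, a change of -1.23 ± 0.07 (adjusted p = 2.4e-05). Emg1 had 32.4 and 32.8 FPKM, against 84.9, 63.3 and 68.2 FPKM, a change of -1.11 (adjusted p = 0.00049). Treated and untreated libraries did not overlap in either gene, as the choice required. Imp3, which joins the U3 RNA to its base-paired sites, had 23.4 and 21.8 FPKM, against 61.5, 44.1 and 41.1 FPKM, a change of -1.06 (adjusted p = 0.0036). Utp6, a UTP-B protein, had 10.5 FPKM in each library, against 21.97, 22.7 and 19.97 FPKM, a change of -0.97 (adjusted p = 0.00021).

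Utp14a was the 1 gene called between the doses, a count near the share over all genes. It activates the helicase DHX37, which releases U3. It had 13.4 and 14.4 FPKM at 10 ng/ml and 21.1 and 21.3 FPKM at 5 ng/ml, against 34.8, 34.7 and 36.3 FPKM without ActD. It was the only one of the 43 genes that differed between 10 and 5 ng/ml (1 of 43, with a background of 1.47% lower and 1.47% higher over all genes), by -0.57 ± 0.08 (limma, adjusted p = 0.029). That count depends on single untreated libraries: it was 7 without the first untreated library and 0 without any other untreated one. Leaving out a treated library leaves 1 in its group, too few to judge the count.

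**Figure D2:**
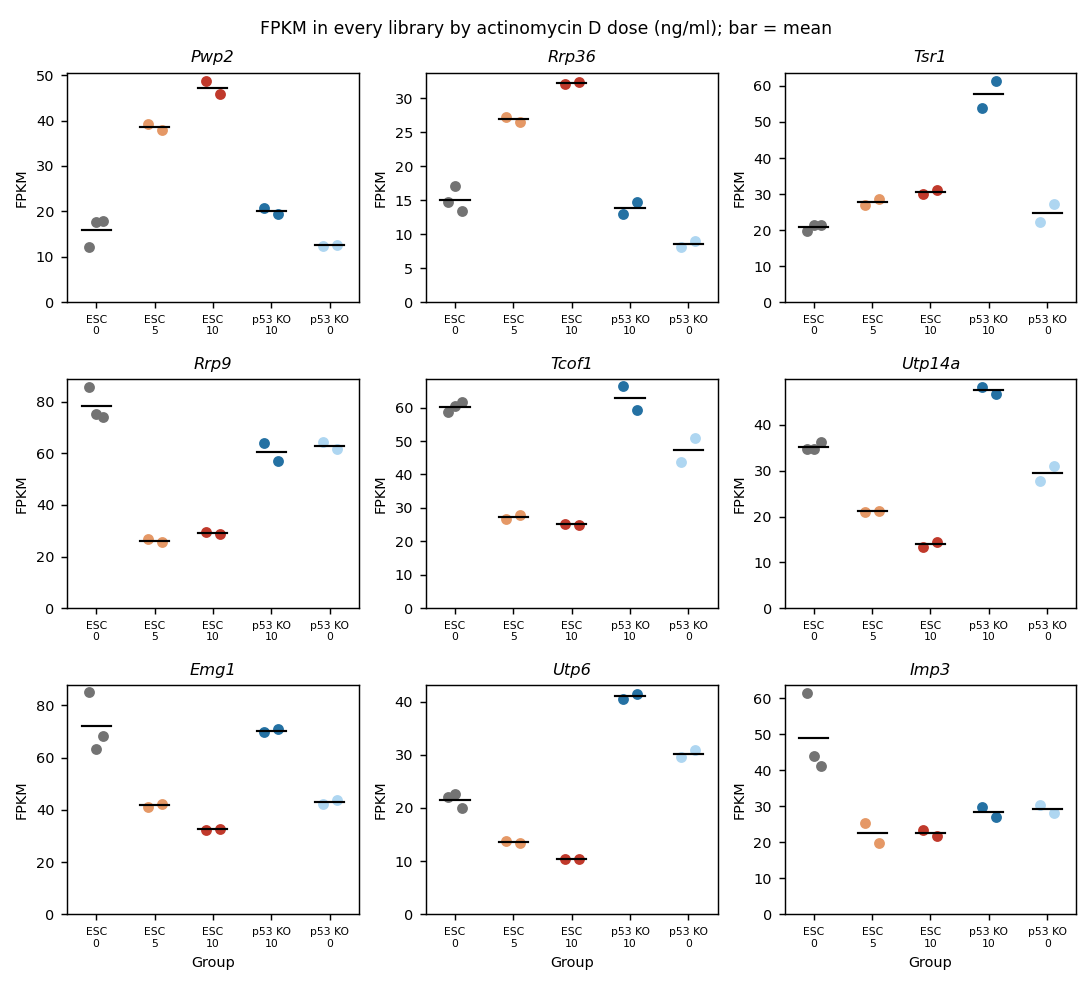
FPKM (linear axis from 0) of 9 genes in every library, by cells and ActD dose in ng/ml; points are libraries and bars group means. Pwp2, Rrp36 and Tsr1 are higher with ActD in ESCs and in p53 KO ESCs, where Tsr1 alone of these passed when rescaled, while Rrp9, Tcof1, Utp14a, Emg1, Utp6 and Imp3 are lower with ActD in ESCs and not as deposited in p53 KO ESCs, where Rrp9 and Imp3 were lower when rescaled.

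The subunits of one complex did not all move the same way. Within UTP-A, Nol11 rose while Utp15, Wdr75 and Heatr1 fell by 0.64, 0.66 and 0.68 at 10 ng/ml and Wdr43 changed by -0.11 (adjusted p = 0.38). Within UTP-B, Pwp2 rose while Utp6, Tbl3 and Wdr3 fell by 0.97, 0.86 and 0.24, and Utp18 and Wdr36 were not called. The Wdr3 call was narrow (adjusted p = 0.049). Of the U3 and MPP10 proteins, Rrp9 and Imp3 fell, while Mphosph10 and Imp4 were not called at -0.13 and 0.04. Emg1 and Dimt1 of the 3 rRNA-modifying enzymes fell, and Nat10, the acetyltransferase, was not called at -0.16. The AATF and NGDN proteins, which form a complex in human cells, both came from genes that fell, Aatf by 0.81 and Ngdn by 0.43. Over all genes 36.4% rose and 20.0% fell, and no role was tested against those shares. Of the 7 late factors tested, 2 rose and 0 fell at an adjusted p under 0.05 with limma (3 of the 7 had an unadjusted p under 0.05). Much of this mixture depends on the scaling. With the rescaling, which lowers every change, Wdr43 (-0.27, adjusted p = 0.045), Wdr36 (-0.38, adjusted p = 0.017), Mphosph10 (-0.29, adjusted p = 0.016) and Nat10 (-0.32, adjusted p = 0.0047) fell as well, as did Bms1 (-0.30) and the late factors Bysl and Riok1 (-0.38 and -0.41). Rescaled, every UTP-A gene other than Nol11 was thus lower, and every UTP-B gene other than Pwp2 and Utp18.

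Other genes of the pathway gave a measure of how far this was shared. Of 20 other 40S pathway genes 1 was higher and 6 lower at 10 ng/ml, and of 50 factors of 60S assembly 8 were higher and 25 lower (1 and 6 became 0 and 9, and 8 and 25 became 4 and 29, when rescaled). Of 15 genes of the RNA polymerase I machinery 5 were higher and 4 lower (3 and 4 rescaled). Of 32 small-subunit ribosomal protein genes 0 were higher and 30 lower (30 had an unadjusted p under 0.05), with a median of -0.89.

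In p53 KO ESCs the same dose of ActD gave another picture. Of the 43 genes 30 were higher and 0 lower with limma (background: 32.7% higher and 4.33% lower; 32 had an unadjusted p under 0.05). The median change was 0.54 against 0.35 over all genes. That count depends on the scaling, since rescaling brought the all-gene median down to 0.01. Rescaled, 8 of the 43 genes were higher and 3 lower (background: 10.1% higher and 13.2% lower), with a median of 0.14, and the changes of 6 of the 30 (Utp3, Wdr36, Nop14, Rcl1, Nat10 and Tcof1) turned below 0 without a call. Whether the count also depends on single libraries could not be judged, because leaving out any one of them leaves 1 in its group.

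The largest rise was that of Tsr1, a GTPase-like factor that keeps translation factors off the immature 40S. It had 53.9 and 61.5 FPKM with ActD, against 22.3 and 27.3 FPKM without, a change of 1.19 ± 0.13 (limma, adjusted p = 0.0054) and 0.79 rescaled (adjusted p = 0.013). Rrp7a, of UTP-C, had 23.4 and 22.9 FPKM against 9.72 and 10.6 FPKM, a change of 1.11 (adjusted p = 0.0047). Krr1, a KH-domain protein of the processome, had 86.3 and 83.1 FPKM against 40.3 and 45.3 FPKM, a change of 0.97 (adjusted p = 0.0048). In both genes all libraries with ActD lay above those without, as the choice required. Both were higher when rescaled, at 0.73 and 0.56. Imp4 rose to 14.2 and 14.4 FPKM, against 6.50 and 7.21 FPKM, and Nol6 to 56.3 and 52.9 FPKM, against 31.2 and 29.7 FPKM. Dimt1 had 8.08 and 10.7 FPKM against 3.99 and 4.61 FPKM, a change of 0.96 (adjusted p = 0.014) that did not pass when rescaled (0.61, adjusted p = 0.06).

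Set side by side, 5 genes were higher with ActD in both genotypes, namely Pwp2, Rrp36, Nol11, Rrp12 and Tsr1. Rescaled, Tsr1 was the 1 gene higher in both, since Pwp2, Rrp36, Nol11 and Rrp12 were then not called in p53 KO ESCs (adjusted p = 0.11, 0.16, 0.26 and 0.097). Utp20 rose in ESCs and was not called in p53 KO ESCs. A rise in p53 KO ESCs was not particular to the genes that fell in ESCs. Of the genes not called in ESCs, 13 were called higher in p53 KO ESCs and 7 were not called. Of the 17 genes that fell in ESCs, 12 were called higher in p53 KO ESCs (Utp6, Utp14a, Wdr3, Wdr75, Tbl3, Rcl1, Krr1, Pdcd11, Emg1, Dimt1, Ngdn and Tcof1), and 5 were not called there (Utp15, Heatr1, Rrp9, Imp3 and Aatf). The opposite direction held on the deposited scale for most of these 12: rescaled, Krr1 and Emg1 alone were lower in ESCs and higher in p53 KO ESCs, 19 genes were lower in ESCs and not called in p53 KO ESCs, and Rrp9, Imp3 and Aatf were lower in both.

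The difference between the genotypes was tested directly, as the change in ESCs minus the change in p53 KO ESCs. It was lower than 0 in 30 of the 43 genes and higher in 1 (background: 25.3% lower and 13.8% higher), with a median of -0.65 against -0.21 over all genes. Rescaled, where the median over all genes was 0.01, it was lower in 22 and higher in 4 (background: 18.1% lower and 18.7% higher), and the median was -0.41.

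Utp14a had the largest difference. It had 48.2 and 46.8 FPKM with ActD in p53 KO ESCs, against 27.7 and 31.1 FPKM without, and the changes of -1.28 in ESCs and 0.68 in p53 KO ESCs differed by -1.96 ± 0.12 (limma, adjusted p = 6e-06). Emg1 had 69.6 and 71.0 FPKM with ActD in p53 KO ESCs, against 42.0 and 43.9 FPKM without, and the changes differed by -1.81 (adjusted p = 5e-05). For Tcof1 the levels were 66.4 and 59.4 FPKM against 43.8 and 51.0 FPKM, and the difference was -1.63 (adjusted p = 2.2e-05). All 3 genes were called lower in ESCs and higher in p53 KO ESCs as deposited, and rescaled the differences were -1.71, -1.56 and -1.39, with Emg1 alone still called higher in p53 KO ESCs. Dimt1 (-1.59), Tbl3 (-1.53) and Utp6 (-1.40) followed in size. Rrp9 overlapped between the groups in p53 KO ESCs, at 64.1 and 56.8 FPKM, against 64.3 and 61.5 FPKM, and differed by -1.33 (adjusted p = 6.6e-05).

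Pwp2 was, as deposited, the 1 gene called with a larger rise in ESCs. In p53 KO ESCs it had 20.6 and 19.4 FPKM with ActD, against 12.5 and 12.5 FPKM without, a change of 0.64 (adjusted p = 0.01) that was not called when rescaled (0.25, adjusted p = 0.11). The changes of 1.53 and 0.64 differed by 0.89 ± 0.22 (limma, adjusted p = 0.0099), and by 1.12 rescaled.

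**Figure D3:**
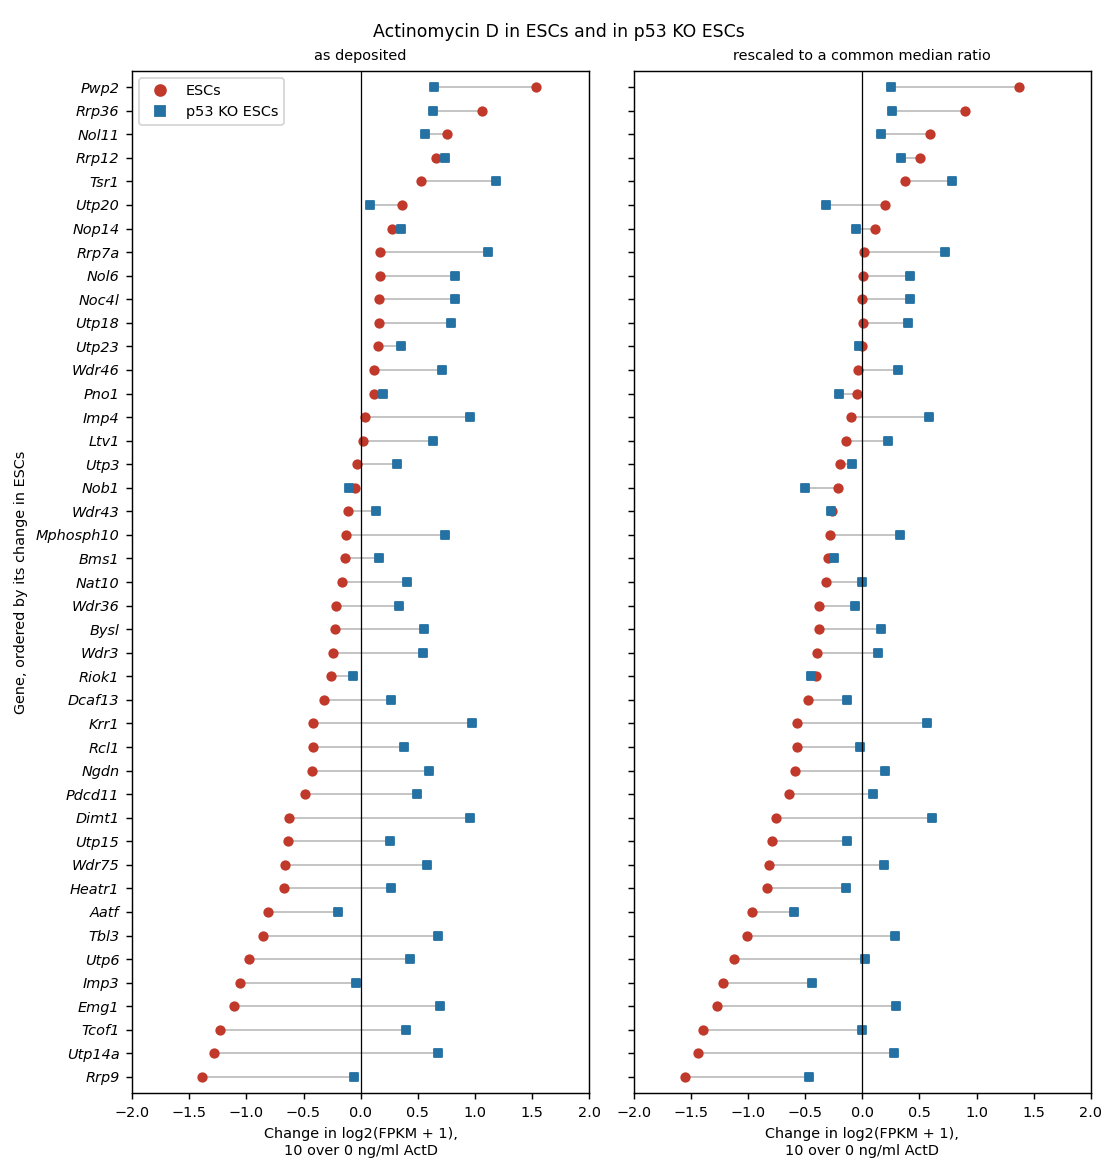
Change in log2(FPKM + 1) at 10 over 0 ng/ml ActD in ESCs (red circles) and in p53 KO ESCs (blue squares) for the 43 genes, ordered by the change in ESCs, as deposited (left) and rescaled (right). Blue squares lie right of red circles for 38 of the 43 genes on the left, and Pwp2 at the top is the widest gap the other way.

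The column names carry a field that reads as a sequencing lane, whose meaning the labels do not state. No value of that field holds both untreated and treated libraries of the ESC ActD table, so it cannot be told apart from dose there. The median change of the 43 genes in p53 KO ESCs was 0.45 within field value 3 (2 libraries with ActD, 1 without), against 0.54 over all libraries.

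CX-5461 lowered most of the genes that ActD lowered in ESCs. Of 42 genes tested, 24 fell and 2 rose (background: 28.9% lower and 32.9% higher), with a median of -0.33 against 0.03 over all genes. Rescaled, 31 fell and 2 rose (background: 33.7% lower and 30.0% higher). Of the 24 that fell with CX-5461, 15 (62.5%) also fell with 10 ng/ml ActD in ESCs, which is 88.2% of the 17 that fell with ActD. The 2 genes that rose with CX-5461, Pwp2 and Utp20, were among the 6 that rose with ActD (33.3%). The tables share no libraries. Since 24 of the 42 genes fell with CX-5461, part of this overlap follows from that count alone. No overlap over all genes is given beside it, and the overlap was not tested.

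Pwp2 had 15.7, 16.3 and 16.5 FPKM with CX-5461, against 7.09, 7.96 and 7.43 FPKM without, a change of 1.02 ± 0.07 (limma, adjusted p = 1.5e-05). Utp20 had 7.64, 8.69 and 8.46 FPKM, against 5.61, 5.62 and 5.50 FPKM, a change of 0.49 (adjusted p = 0.00093). Neither gene's libraries overlapped between the groups, as the choice required.

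Rrp9 again fell most, to 0.765, 1.203 and 0.981 FPKM with CX-5461, against 3.37, 3.35 and 4.15 FPKM without, a change of -1.22 (limma, adjusted p = 0.0001). Because 1 is added before the log, this understates the change of so low a gene: the ratio of its means was 0.272. Tcof1 had 7.50, 6.91 and 6.90 FPKM, against 16.03, 15.04 and 16.6 FPKM, a change of -1.06 (adjusted p = 1.4e-05). Wdr43, a UTP-A protein not called with ActD, had 19.6, 20.9 and 19.2 FPKM, against 33.4, 33.7 and 32.2 FPKM, a change of -0.71 (adjusted p = 3.8e-05). Each of these genes had all treated libraries below all untreated ones, as the choice required. Wdr75, Utp6 and Utp14a fell by 0.72, 0.69 and 0.67.

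Late 40S factors were lower with CX-5461: Nob1, the endonuclease that makes the 3′ end of 18S rRNA, its partner Pno1, and Bysl, Ltv1 and Riok1 fell by 0.37 to 0.48, while Tsr1 and Rrp12 were not called at -0.09 and 0.13 (rescaled, Tsr1 passed at -0.18, adjusted p = 0.046). Over all genes 28.9% fell and 32.9% rose, and the late factors were not tested against those shares. Of 50 factors of 60S assembly 31 fell and 3 rose, and of 27 small-subunit ribosomal protein genes 22 fell and 0 rose (23 had an unadjusted p under 0.05).

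CHX moved these genes in both directions, and as deposited the shares called were near those over all genes. Of the 43 genes 12 rose and 10 fell (background: 33.2% higher and 19.8% lower), with a median of 0.03 against 0.12 over all genes. Rescaled, which moved the median of all genes to -0.02, 11 rose and 15 fell (background: 27.1% higher and 26.1% lower). Within field value 2, the 1 value with a library of each group, the median change of the 43 genes was 0.06.

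Rrp36 rose most, to 38.2 and 43.5 FPKM with CHX, against 10.1 and 8.33 FPKM without, a change of 2.04 ± 0.13 (limma, adjusted p = 0.00056). Ngdn had 70.6 and 64.4 FPKM, against 28.1 and 29.1 FPKM, a change of 1.21 (adjusted p = 0.00063). Nob1 had 82.1 and 91.8 FPKM, against 41.6 and 36.8 FPKM, a change of 1.13 (adjusted p = 0.0012), and became the highest of the 43 genes. Treated and untreated libraries did not overlap in these genes, as the choice required. Utp20 and Tsr1 rose by 0.82 each and Bysl, an early-binding protein that leaves the pre-40S late, by 0.67.

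The fall was largest for Imp3, which had 8.23 and 10.9 FPKM with CHX, against 28.3 and 29.2 FPKM without, a change of -1.51 ± 0.14 (limma, adjusted p = 0.0015). Tcof1 had 27.8 and 26.0 FPKM, against 46.7 and 46.8 FPKM, a change of -0.78 (adjusted p = 0.0015). Tbl3 and Wdr36 of UTP-B and Utp15 of UTP-A fell by 0.69, 0.67 and 0.57. Pwp2 fell as well, to 8.97 and 10.1 FPKM against 15.3 and 13.6 FPKM, a change of -0.55 (adjusted p = 0.014). Rrp9 had 48.2 and 55.2 FPKM, against 59.6 and 57.5 FPKM, and was not called (-0.18, adjusted p = 0.15), though it passed when rescaled (-0.35, adjusted p = 0.029).

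By role, 4 of 7 late factors rose with CHX and 0 fell (limma; 5 of 7 had an unadjusted p under 0.05), while 3 of 6 UTP-B genes fell and 0 rose (3 of 6 had an unadjusted p under 0.05). Over all genes 33.2% rose and 19.8% fell, and no role was tested against that share. Of 20 other 40S pathway genes 10 rose and 4 fell (5 and 6 rescaled), and of 50 factors of 60S assembly 19 rose and 11 fell (13 and 17 rescaled).

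The changes with CHX and with CX-5461 were also compared directly. CHX minus CX-5461 was higher than 0 in 22 and lower in 4 of 42 genes (background: 27.9% higher and 26.8% lower), and rescaled in 18 and 4 (background: 25.1% higher and 30.3% lower). The 4 lower ones were Pwp2, at -1.57 ± 0.12 (limma, adjusted p = 6.4e-06), Tbl3 at -0.91, Imp3 at -0.88 and Wdr36 at -0.69. The largest on the other side were Rrp36 at 1.82 (adjusted p = 0.00013), Ngdn at 1.58 (adjusted p = 5.7e-05), Nob1 at 1.58 (adjusted p = 5.8e-06), Bysl at 1.15 and Rrp9 at 1.04. Against 10 ng/ml ActD in ESCs, CHX was higher in 17 and lower in 3 of 43 genes (background: 20.4% higher and 23.2% lower), again with Ngdn (1.64) on the higher side and Pwp2 (-2.09) on the lower.

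**Figure D4:**
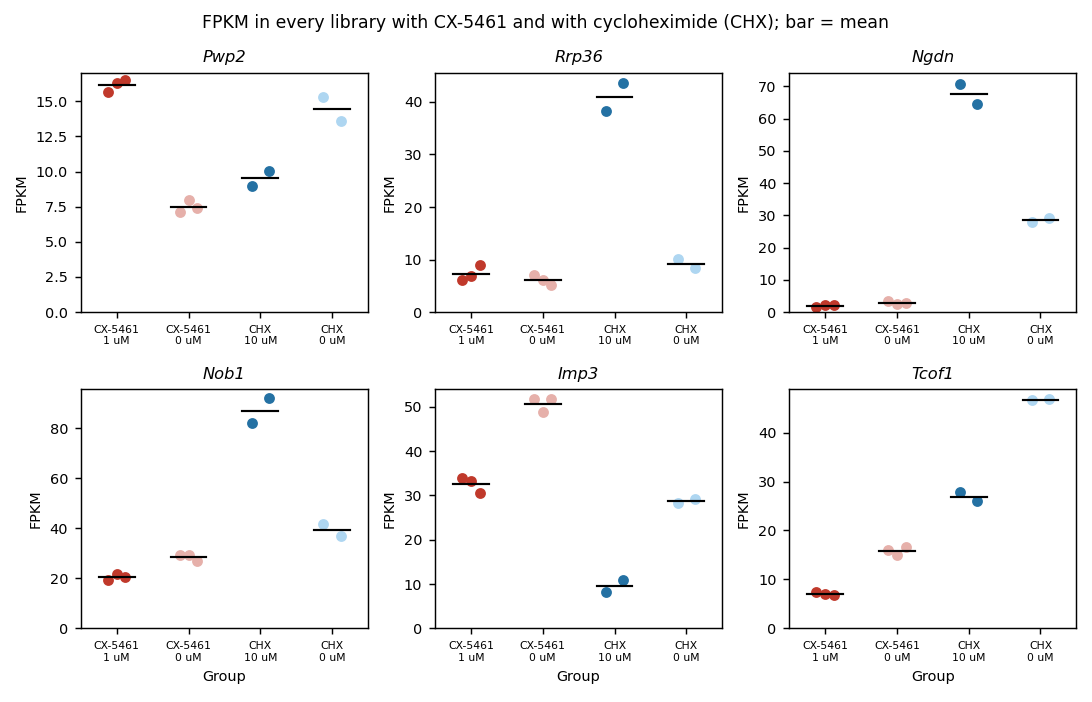
FPKM (linear axis from 0) of 6 genes in every library with and without CX-5461 and with and without CHX; points are libraries and bars group means. Pwp2 is higher with CX-5461 and lower with CHX, Rrp36, Ngdn and Nob1 are higher with CHX, and Imp3 and Tcof1 are lower with both drugs.

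Knockdown of Ddx18 left most of these genes uncalled in EZH2 KO and p53 KO ESCs and lowered Tcof1 in both. The table for ESCs holds 4769 symbols, against 46683 in each of the others, and of the 4695 genes above the minimum 4595 had an adjusted p under 0.05 with limma. It was therefore taken to list genes that differ between these libraries, and its values are described with no test. It lists 19 of the 43 genes (44.2%), against 35.3% of the genes tested in the EZH2 KO knockdown table. Of the 19, 18 were lower with knockdown, against 43.4% of all listed genes, and Utp20 alone was higher. Rescaled, all 19 were at or below 0, since the median of the listed genes was 0.30 as deposited and 0.02 rescaled.

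Tcof1 was the furthest below its controls, with 50.3 and 49.6 FPKM in knockdown ESCs, against 77.9 and 85.1 FPKM in controls (a change of -0.69). Pno1 had 31.7 and 37.4 FPKM, against 52.1 and 48.9 FPKM (-0.54). Emg1 had 52.1 and 62.7 FPKM, against 82.0 and 84.4 FPKM (-0.54). In all 3 genes both knockdown libraries lay below both controls, but so they did in 18 of the 19 listed genes, with 1 above. The table is taken to be selected on these libraries, so that separation is no separate support. Wdr3 (-0.52), Rcl1 (-0.41) and Rrp9 (-0.41) came next, and Rrp9 had 64.7 and 66.4 FPKM, against 83.7 and 91.5 FPKM. Utp20 had 52.7 and 52.9 FPKM, against 42.3 and 43.2 FPKM, a change of 0.30 that was -0.01 rescaled. The listed genes cover UTP-A (4 of 5 genes), both BMS1 and RCL1, 2 of 3 rRNA-modifying enzymes and 4 of the late factors, while Pwp2, Rrp36, Nol11, Imp3 and Utp14a have no entry.

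In EZH2 KO ESCs 1 of the 43 genes was lower and 0 higher with knockdown (limma; background: 2.18% lower and 6.30% higher; 7 had an unadjusted p under 0.05). The gene was Tcof1, with 92.4 and 89.8 FPKM in knockdown cells, against 141.5 and 136.9 FPKM in controls. Its change was -0.61 ± 0.09 (limma, adjusted p = 0.016), and the call was lost with no filter. Leaving out a library leaves 1 in its group, too few to judge the call. Under all alternatives the change was -0.73 to -0.58. Rrp9, at 93.9 and 100.6 FPKM against 121 and 127 FPKM, missed the threshold (-0.35, adjusted p = 0.073) and passed it rescaled (-0.47, adjusted p = 0.035). Nol6 (-0.24) and Wdr46 (0.05), the other highly expressed ones, were not called.

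In p53 KO ESCs the one called gene was again Tcof1: 1 of 43 was lower and 0 higher (limma; background: 0.636% lower and 2.63% higher; 9 had an unadjusted p under 0.05). It had 52.5 and 48.7 FPKM in knockdown cells, against 189 and 146 FPKM in controls, a change of -1.70 ± 0.21 (adjusted p = 0.048). The call is fragile, since it was lost with no filter, with a pseudocount of 0.1 and with the replicate block. Leaving out a library leaves 1 in its group, too few to judge the call. The change stayed negative under all alternatives (-2.10 to -1.51). The change in p53 KO minus that in EZH2 KO ESCs was lower for Tcof1 by -1.09 (adjusted p = 0.05, just under the threshold) and was called for no other gene (1 of 43 lower and 0 higher, with a background of 0.819% lower and 1.13% higher; 10 had an unadjusted p under 0.05). Rrp9, at 137 and 131 FPKM against 141 and 117 FPKM, overlapped between the groups, and Nop14 (0.57) and Utp3 (-0.05) were not called. The median over the 43 genes was 0.15 against 0.34 over all genes, and -0.24 rescaled, so its sign did not hold under both scalings.

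In E3.5 embryos 0 of the 37 genes tested were called with limma (6 had an unadjusted p under 0.05; background: 0.633% higher and 4.55% lower), and the other 6 were under the minimum of 1 FPKM. The median change was 0.24 in knockout embryos, against -0.31 over all genes, and 0.48 against -0.03 rescaled. Pno1 had 59.5 and 48.1 FPKM in knockout embryos, against 66.9 and 52.1 FPKM in wild type, and Emg1 64.8 and 56.6 FPKM, against 53.8 and 43.5 FPKM. Mphosph10, the scaffold of the MPP10 complex, had 24.4 and 30.3 FPKM, against 17.5 and 14.7 FPKM (0.73, adjusted p = 0.18), and Dcaf13 had 27.5 and 24.1 FPKM, against 15.0 and 12.1 FPKM (0.89, adjusted p = 0.12). In the last 2 both knockout libraries lay above both wild-type ones, as they did in 17 of the 37 genes (background: 14.3% of genes). In 6 of the 37 genes, Utp3, Utp6, Utp14a, Rrp7a, Imp3 and Ngdn, both knockout libraries lay below both wild-type ones (background: 42.4% of genes). Rrp7a had the largest change of the 37, with 1.01 and 1.54 FPKM in knockout embryos, against 5.24 and 5.63 FPKM in wild type (-1.51, adjusted p = 0.065). Tcof1 was at 2.27 and 0.969 FPKM, against 0.884 and 1.28 FPKM, levels at which the libraries of one group differ by more than the groups do. ESC markers summed to 38.8 to 55.8 FPKM in knockout embryos, against 225 to 274 FPKM in wild type, and trophectoderm markers to 41.7 to 51.1 FPKM, against 198 to 200 FPKM. Their part in the result was not tested.

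**Figure D5:**
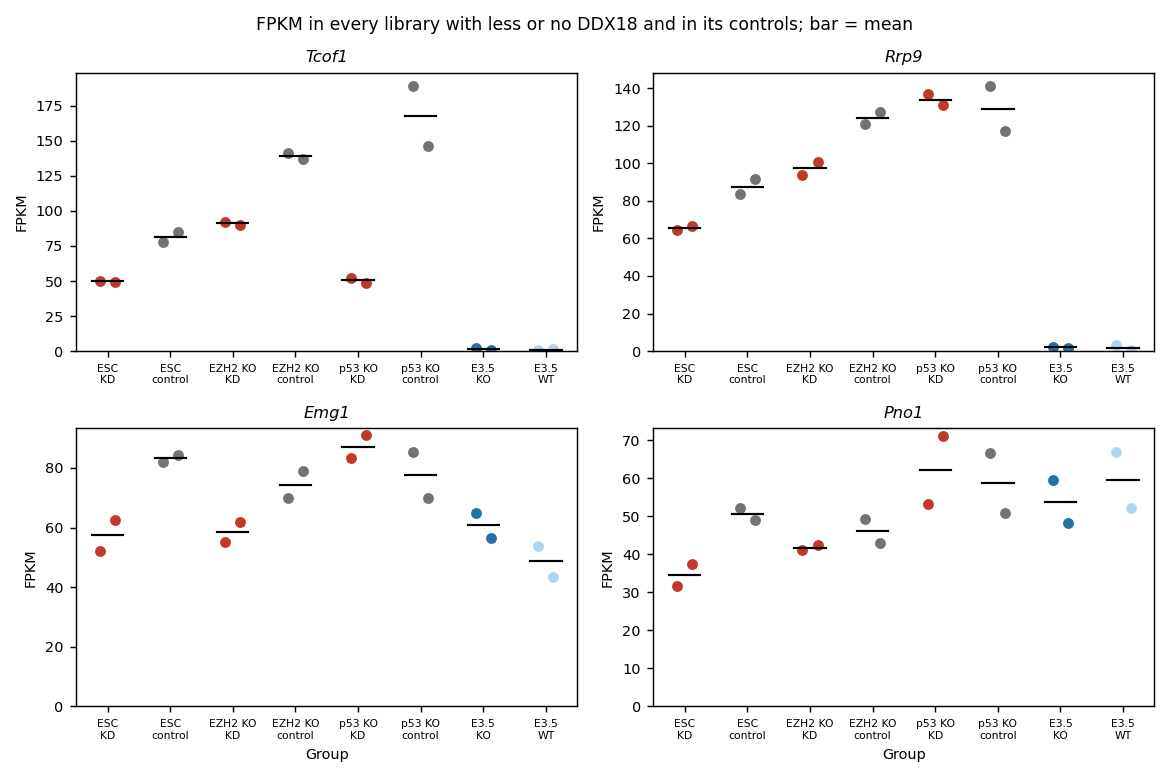
FPKM (linear axis from 0) of 4 genes in every library of the Ddx18 knockdown and knockout tables; points are libraries and bars group means. Tcof1 is lower with knockdown in all 3 cell types. Rrp9, Emg1 and Pno1 have both knockdown libraries below both controls in ESCs, whose table is taken to be selected for such differences. They do so too in EZH2 KO ESCs, where none of these 3 was called as deposited, and overlap between the groups in p53 KO ESCs.

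Across the 7 comparisons other than the selected ESC table and the lower ActD dose, Tcof1 was lower in 5 and higher in 1, with ActD in p53 KO ESCs, where it was -0.01 rescaled. Imp3, Utp15, Emg1, Rcl1 and Pdcd11 were lower in 3, and Emg1, Rcl1 and Pdcd11 were higher in 1, again with ActD in p53 KO ESCs, where Emg1 alone of these passed when rescaled. Pwp2, Rrp36, Nol11, Rrp12, Tsr1 and Utp20 were higher in 3, and Pwp2 was also lower in 1, with CHX. Of those 3 calls, the one with ActD in p53 KO ESCs was lost on rescaling for Pwp2, Rrp36, Nol11 and Rrp12, and the one with ActD in ESCs for Utp20. Utp23 and Dcaf13 were called in none.

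Regions recovered with FLAG-Biotin tagged DDX18 touched few of these genes. No share over other genes is set beside the counts that follow, which are a description only. None of 880 and 939 CLIP regions overlapped one of the 43 genes, and of the regions from the FLAG-Biotin TAP-seq libraries 1 of 635 and 3 of 741 did. In both TAP libraries the region lay in Tsr1 at chr11:74905401-74905500 on mm10, with the authors' scores of 9 and 13, and in the second library 2 regions lay in Wdr43 at chr17:71640801-71640900 and chr17:71641501-71641600 with scores of 10 each. The nearest annotated gene was Snord91a in Tsr1 and Snord53 in Wdr43, which are snoRNA genes. The scores of 9 and 10 lie near the lowest of the lists (8), whose medians were 20 and 19. That of 13 lies between the lowest and the median of the second list.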

How the data were processed

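The authors deposited FPKM per gene in 8 RNA-seq tables. TopHat2 2.0.11 and CASAVA are named in the submitters' processing notes, while the program behind the FPKM and any scaling between libraries are not named there. Deposited counts of mapped reads were used for 3 libraries, whose names match a single sample. Each CLIP or TAP region on mm10 has the authors' score, per the file headers. The fold enrichment of the deposited ChIP-seq peaks, a ratio, was not set against genes, because no source here names their build. Of repeated symbols, only the one with the highest mean was used.

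Each comparison was fitted with limma 3.58.1 in R 4.3.3 on log2(FPKM + 1), letting the prior variance follow the mean. Genes were kept if they reached 1 FPKM in a number of libraries equal to the size of the smallest group. Tests were two-sided, p-values were adjusted over all genes kept (Benjamini-Hochberg), and the threshold was 0.05. The groups of 1 table share a fit, so both ActD doses share a spread. Differences between tables were fitted with 1 mean per group. An exact permutation test of 2 against 2 libraries cannot go below p = 0.333, nor of 3 against 3 below 0.1. Alternatives were a pseudocount of 0.1, no filter, libraries rescaled to a common median ratio, replicate number as a block, and leaving out each library; the fit was tested on simulated data. Where leaving out a library left 1 in a group, that library was assumed to vary like the others of its table.

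Genes given with values in every library are, per comparison, up to 6 higher and 6 lower of the called ones with the largest change and no overlap between groups; with fewer than 2 called, the 4 with the highest mean. The lack of overlap in those called genes follows from this choice, and no share over all genes is given beside it for the drugs. Others were named after their values were seen. The genes, the lists and the motifs shown were chosen with earlier results of these data known.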

Additional observations from a re-analysis of the deposited data

Results flagged for a closer look

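The changes with 10 ng/ml ActD differed between ESCs and p53 KO ESCs in 31 of the 43 genes, by limma on the difference itself (30 lower and 1 higher, against 25.3% and 13.8% of all genes; rescaled, 22 lower and 4 higher, against 18.1% and 18.7%). Pwp2 stood higher in ESCs by 0.89, and Utp14a (-1.96), Emg1 (-1.81), Tcof1 (-1.63), Dimt1 (-1.59), Tbl3 (-1.53) and Utp6 (-1.40) stood lower. The changes with Ddx18 knockdown differed between p53 KO and EZH2 KO ESCs in 1 gene, Tcof1, by -1.09 (adjusted p = 0.05; over all genes 0.819% were lower and 1.13% higher). That call was lost with no filter, with a pseudocount of 0.1 and with the replicate block. Leaving out a library leaves 1 in its group, too few to judge the call. Under all alternatives the difference was -1.376 to -0.905.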

How the results depend on the processing

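Rescaling moved the genes called at 5 ng/ml ActD from 20 to 32, in p53 KO ESCs with ActD from 30 to 11, and in the EZH2 KO knockdown from 1 to 2. The knockdown calls also fell to 0 with no filter (EZH2 KO, p53 KO and their difference) and with a pseudocount of 0.1 or the replicate block (p53 KO and the difference). In the counts that follow, leaving out a library from a group of 2 leaves 1 there and weakens the fit itself. A lower count then does not show that a result rests on that library. Leaving out 1 library gave 0 to 0 calls in each knockdown line, 0 to 2 in their difference, 0 to 28 with ActD in p53 KO ESCs, 0 to 7 between the ActD doses, 14 to 24 at 5 ng/ml, 17 to 26 at 10 ng/ml, 22 to 28 with CX-5461, 15 to 19 with CHX, 25 to 32 for the ActD difference between genotypes, 19 to 25 for CHX minus CX-5461 and 17 to 24 for CHX minus ActD. Of 839 values under alternatives of the called genes that the naming rule chose, 777 kept direction and side of the threshold, 62 lost the call and 0 reversed. Genes outside that rule did turn sign on rescaling: 6 of the 30 called with ActD in p53 KO ESCs, and, among those not called, 10 in the EZH2 KO knockdown (Wdr46 from 0.05 to -0.07), 18 in the p53 KO knockdown (Rrp9 from 0.06 to -0.35) and 5 in embryos (Pno1 from -0.14 to 0.23). Same-numbered libraries did not deviate together (r from -0.256 to 0.0449), so the numbers were not taken to pair them; the replicate block gave 1 call in the EZH2 KO knockdown, 0 in knockout embryos and 27 with CX-5461. The crossed pairing in p53 KO knockdown, added after seeing the data, gave 2 calls. No paired analysis was possible for ActD and CHX because their columns carry no replicate numbers. With 2 libraries in most groups, changes within the spread could not be detected.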

Other observations

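The genes with CACGTG and without it in the promoter window are set side by side here as values, chosen after these were seen and with no test. With 10 ng/ml ActD in ESCs the median change was 0.12 over the 11 genes with the motif (3 higher and 1 lower) and -0.34 over the 24 without it (2 higher and 13 lower). With CX-5461 the medians were -0.16 over 11 genes (1 higher and 4 lower) and -0.45 over 23 (1 higher and 17 lower). With CHX they were 0.11 (4 higher and 0 lower) and -0.10 (6 higher and 7 lower), and with ActD in p53 KO ESCs 0.63 and 0.52. For CCGGAAGT the medians with ActD in ESCs were -0.09 over 10 genes with the motif and -0.16 over 25 without it. With CX-5461 they were -0.23 over 10 and -0.41 over 24, with CHX 0.08 and 0.04, and with ActD in p53 KO ESCs 0.59 and 0.56.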
